A study of Mus musculus with 15 samples.

Results

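Mmu-miR-720 was measured in liver grafts of mice on Agilent 1-color miRNA arrays, 15 arrays in 5 groups of 3, 1 graft per array. It is 1 of the 567 mouse entries on the array. It was picked on its wide swing over these same arrays, so its levels, differences and shares are given as a description with no test. The allografts were livers of B10.BR (H2-Kk) donors placed in B10.D2 (H2-Kd) recipients, male mice, and were removed on day 5, day 8, day 14 or day 100. The syngeneic grafts were removed on day 5. No immunosuppressive drug was part of the model. The labels give the allogeneic strain pair for every array, so the syngeneic arrays are known by their titles only, and their own strain is not given in the sources used here. Age was not given for any group. Syngeneic grafts were taken on day 5 alone, so that for days 8, 14 and 100 the kind of graft and the time after transplantation cannot be told apart.

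MicroRNAs are short RNAs that are cut from hairpin precursors and guide a protein complex to messenger RNAs through the seed near their 5′ end. MiR-720 carries a microRNA number but was later withdrawn from the miRBase registry, because its sequence matches the tail end of a threonine tRNA. Transfer RNAs bring amino acids to the ribosome, and nucleases such as angiogenin cut them into fragments in stressed cells. The dye was ligated to the end of any single-stranded RNA after phosphatase treatment, and the files do not say whether the RNA bound to the miR-720 probes was a fragment or a longer tRNA. The brightness of a probe depends on the probe as well as on the amount of RNA, so that levels are compared between arrays and not between miRNAs. In whole grafts, fewer cells of a type and less RNA per cell cannot be told apart.

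The RefSeq table used here did not hold miR-720, which is therefore given by name alone. The miRNAs whose levels ran most like it over the 15 arrays, and those that ran most opposite, are shown as mature RefSeq sequences, with the seed (bases 2 to 8) in capitals. MiR-30a is shown because it shares the seed of miR-30e, from which it differs by C13U, counted from the 5′ end with the base of miR-30a first. MiR-15b and miR-16 also share their seed with each other, and miR-193, miR-29b and miR-23a have seeds of their own. All matched by name, with the older array names read as the main arm, and positions are those of RefSeq on GRCm38.p6. MiR-30e lies at chr4:120772660-120772681 on the minus strand, miR-30a at chr1:23272274-23272295 on the plus strand, miR-193 (RefSeq miR-193a-3p) at chr11:79712009-79712030 on the plus strand and miR-23a at chr8:84208563-84208583 on the plus strand. MiR-15b at chr3:69009775-69009796 and a first copy of miR-16 at chr3:69009918-69009939 are neighbors on the plus strand, and miR-16 has another copy at chr14:61631936-61631957 on the minus strand. MiR-29b is made from chr1:195037091-195037113 on the plus strand and from chr6:31063025-31063047 on the minus strand.
miR-30e: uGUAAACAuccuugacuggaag
miR-30a: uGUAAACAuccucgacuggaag
miR-193: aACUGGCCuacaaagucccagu
miR-29b: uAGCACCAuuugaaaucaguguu
miR-23a: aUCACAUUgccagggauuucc
miR-16: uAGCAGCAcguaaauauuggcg
miR-15b: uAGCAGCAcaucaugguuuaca

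The authors deposited processed signals that were background-subtracted but not normalized between arrays. Spots were averaged for each probe and probes were summed for each miRNA. The sum was then taken relative to the 75th percentile of its array, computed from the 52 miRNAs that all 15 arrays detected, and given on the log2 scale (the scaled signal). Detection required that a fraction of 0.5 or more of a probe's spots stood well above background, for at least 1 probe of the miRNA. Per array, 60 to 115 miRNAs were detected, the 75th percentile was 395 to 1018 signal units and the summed signal of all mouse entries was 49154 to 100787. The lowest number of detected miRNAs stood on replicate 1 of day 100, whose additive error of 13.1 signal units was the highest. The arrays were spread over 2 slides. Syngeneic replicates 1 and 2 shared slide 1 with all arrays of days 8 and 14, and the remaining arrays were on slide 2. No arrays were copies of each other (0 identical pairs). The labels call the replicates separate mice, and their small number limits the precision of every value.

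MiR-720 was high in both groups of day 5, lowest in the allografts of day 8, and in between on days 14 and 100. Its processed signal ran from 1989 to 58429 over the 15 arrays, a 29.4-fold range. The summed signal of all other mouse entries ran from 35247 to 89749, a 2.55-fold range, but a sum can hide wider swings of single entries. Of the other miRNAs detected on all 15 arrays, miR-15b had the widest range, 17.7-fold. In the syngeneic grafts the processed signal of miR-720 was 5792, 58429 and 29359 in replicates 1, 2 and 3, so that replicates of 1 group stood 10.1-fold apart.

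On the scaled log2 scale, the syngeneic level was 3.49, 7.21 and 5.58 in replicates 1 to 3, with a mean of 5.43 ± 1.86 (SD, n = 3). In the allografts of day 5 it was 3.92, 3.54 and 5.75, with a mean of 4.40 ± 1.18 (SD, n = 3). These groups overlapped, and replicate 3 of day 5 stood above 2 of the 3 syngeneic arrays. In the allografts of day 8 the scaled level was 1.57, 1.35 and 1.34, with a mean of 1.42 ± 0.13 (SD, n = 3). In the allografts of day 14 it was 1.76, 2.90 and 2.17, with a mean of 2.28 ± 0.58 (SD, n = 3). The arrays of day 8 lay close together, and all 6 arrays of days 8 and 14 lay below every syngeneic array. In the allografts of day 100 the scaled level was 3.22, 3.93 and 2.93, with a mean of 3.36 ± 0.52 (SD, n = 3), which overlapped both groups of day 5.

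**Figure D1:**
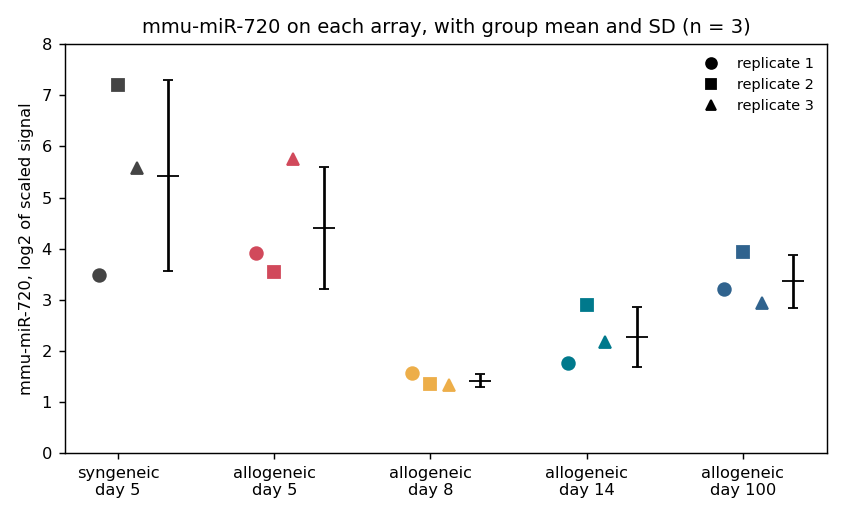
Scaled signal of mmu-miR-720 on the log2 scale (vertical axis) on each of the 15 arrays, by graft and day (horizontal axis). Colored points are single arrays, with the shape giving the replicate number, and the black bar and whiskers beside them are the mean ± SD of 3 arrays. The 3 arrays of day 8 lie between 1.34 and 1.57, below all other arrays, and the syngeneic arrays spread from 3.49 to 7.21.

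The order of the group means was therefore syngeneic, allograft day 5, allograft day 100, allograft day 14 and allograft day 8, from high to low. The first neighbors in that order, syngeneic and day 5, overlapped, and so did day 5 and day 100, except under 2 of 8 scalings (no scaling and the 75th percentile over all miRNAs). Day 100 and day 14 were apart by a narrow gap, from 2.93 to 2.90, and day 14 and day 8 by 1.76 to 1.57. This order was the same under 8 of 8 scalings, no scaling included. The arrays of day 8 lay below the syngeneic arrays under 8 of the 8 scalings and those of day 14 under 7, the exception being quantile normalization. The gap between days 14 and 100 held under 6 of the 8 and that between days 8 and 14 under 5.

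Against the syngeneic mean, the scaled log2 level of miR-720 was lower by 4.01 on day 8 (difference -4.01, SE 1.08, or 16.1-fold) and by 3.15 on day 14 (difference -3.15, SE 1.13, or 8.86-fold). On day 100 the difference was -2.06 (SE 1.12) and on day 5 it was -1.02 (SE 1.27), less than its own standard error. For comparison, all 3 arrays of day 8 lay below all 3 syngeneic arrays for 18.4% of the 103 miRNAs that every array of 1 or more groups detected, and all 3 of day 14 did so for 21.4%. Among the allografts, day 8 lay wholly below day 5 (as did 21.4% of the 103), below day 14 (19.4%) and below day 100 (18.4%), and day 14 lay wholly below day 5 (22.3%) and day 100 (25.2%). The allografts of days 8 and 14 were on another slide than those of days 5 and 100, so that in contrasts between these pairs slide and day cannot be told apart from the allografts alone. Because miR-720 was picked for its swing, nothing is read from these shares.

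Syngeneic replicate 2 weighed heavily on the differences. Without it the differences of days 5, 8, 14 and 100 became -0.13, -3.11, -2.26 and -1.17. Without syngeneic replicate 1, the lowest of its group, they became -1.99, -4.97, -4.11 and -3.03, and without replicate 3 of day 5 the difference of that day became -1.69. Against the syngeneic arrays of the same slide only, the differences were -3.93 on day 8 and -3.07 on day 14 (2 syngeneic arrays), and -1.17 on day 5 and -2.21 on day 100 (1 syngeneic array).

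MiR-720 had the widest spread of the 52 miRNAs detected on every array, which the choice of miR-720 for its swing makes no finding. The SD of its scaled log2 level over the 15 arrays was 1.73, against a median of 0.39 over the 52 miRNAs and 0.96 for the next, miR-1224, named here after its value was seen. Part of this spread lay inside the groups. The pooled within-group SD of miR-720 was 1.05 (median of the 52, 0.23), and the SD of its 5 group means was 1.60 (median of the 52, 0.36). The spread was unequal between groups. In the syngeneic grafts the SD of miR-720 was 1.86 (median of the 52, 0.37) and in the allografts of day 5 it was 1.18 (median 0.17), each the highest of the 52. On day 14 it was 0.58 (median 0.19), again the highest, and on day 100 it was 0.52 (median 0.15), number 4 of the 52. On day 8 it was 0.13 (median 0.08), number 13 of the 52.

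The 2 probes of miR-720 gave the same picture. Each was printed as 10 spots per array, and 300 of 300 spots on the 15 arrays were well above background, with 0 saturated. The spots of 1 probe on 1 array had a coefficient of variation of 1.19% to 6.25% after 13 outlier spots were left out. The dimmer probe, A_54_P2036, ran from 253 to 8385 signal units (33.2-fold) and the brighter, A_54_P2037, from 1736 to 50044 (28.8-fold). Their log2 signals correlated with r = 1.00 over the 15 arrays, as a description, since both probes read the same RNA extracts.

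**Figure D2:**
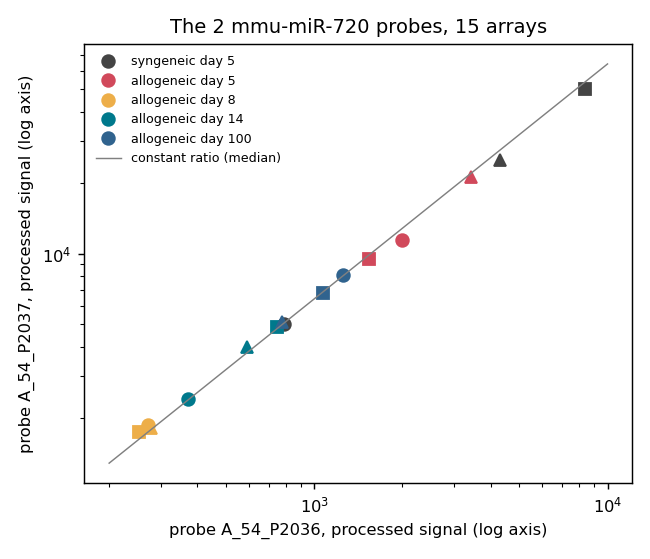
Processed signal of the 2 miR-720 probes against each other on the 15 arrays, both axes on a log scale. Points are arrays, colored by group with the shape giving the replicate number (circle 1, square 2, triangle 3), and the line is the median ratio of 6.41. All arrays lie near the line, with ratios of 5.73 to 6.87.

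The ratio of the brighter to the dimmer probe was not quite constant. It was 5.82 to 6.36 in the syngeneic grafts and 5.73 to 6.21 in the allografts of day 5, against 6.56 to 6.87 on day 8, 6.49 to 6.79 on day 14 and 6.35 to 6.62 on day 100. On 3 arrays the brighter probe was read from the low-gain scan and scaled up by the software: all 10 spots on syngeneic replicates 2 and 3, and 9 of 10 on replicate 3 of day 5. These were also the 3 arrays with the highest miR-720. No spot of the dimmer probe was read that way, and with the dimmer probe alone the log2 differences from the syngeneic grafts were -1.02, -4.15, -3.26 and -2.15 on days 5, 8, 14 and 100, as large as with both probes. The mean signal of the negative control spots was 2.29 to 8.39 on the 15 arrays, below the lowest probe value of miR-720 (253). Single negative control spots were brighter, up to 835 on replicate 3 of day 8, where the dimmer miR-720 probe was at 277.

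As a share of the summed signal of all mouse entries, miR-720 took 11.2%, 62.4% and 29.4% on syngeneic replicates 1, 2 and 3, a mean of 34.4% ± 25.9 (SD, n = 3). On day 5 it took 13.6%, 11.0% and 32.3% (18.9% ± 11.6, SD, n = 3). Syngeneic replicates 1 and 3 lay within the range of day 5. On day 8 the share was 3.27%, 2.90% and 2.70% (2.96% ± 0.29, SD, n = 3), and on day 14 it was 4.04%, 8.00% and 5.54% (5.86% ± 2.00, SD, n = 3). On day 100 it was 16.3%, 16.0% and 9.03% (13.8% ± 4.11, SD, n = 3). The groups that overlapped on the scaled level also overlapped by share, and the shares of days 8 and 14 again lay wholly below the syngeneic shares.

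**Figure D3:**
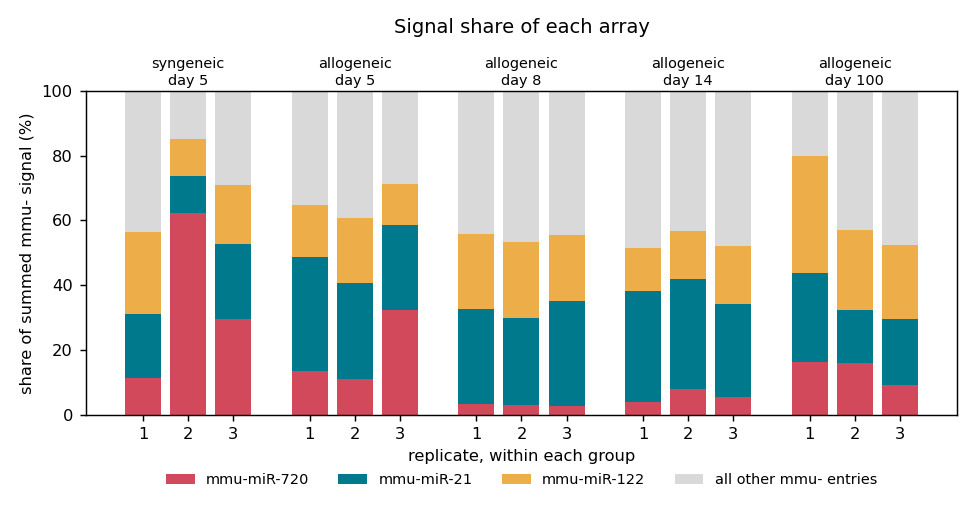
Share of the summed mouse signal, in percent (vertical axis), on each array (1 bar per array, by replicate within each group) taken by miR-720, miR-21, miR-122 and all other entries. The miR-720 segment runs from 2.70% on replicate 3 of day 8 to 62.4% on syngeneic replicate 2.

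The other large shares were those of miR-21, which is raised in many injured tissues, and of miR-122, the abundant miRNA of hepatocytes. A share of signal is not a share of RNA, since brightness depends on the probe as well. The mean share of signal over all arrays was 26.4% for miR-21 (range 11.5% to 35.2%), 20.0% for miR-122 (11.1% to 36.0%) and 15.2% for miR-720 (2.70% to 62.4%). MiR-720 is thus part of the denominator for the other entries. MiR-122 and miR-21 had their lowest shares, 11.1% and 11.5%, on syngeneic replicate 2, where miR-720 had its highest, and with miR-720 left out of the sum miR-122 took 13.6% to 43.0% and miR-21 19.4% to 40.8%. With miR-122 left out of the sum, the mean share of miR-720 was 40.4%, 22.3%, 3.81%, 6.93% and 19.5% in the syngeneic grafts and on days 5, 8, 14 and 100, in the same order of groups.

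The other signal of each array was set beside that of miR-720. Syngeneic replicate 2 had the lowest summed signal of the other entries of all 15 arrays, 35247, and the lowest 75th percentile, 395, and replicate 3 of day 5 had the lowest of its group, 51722 and 457. Syngeneic replicate 3, second highest in miR-720, had a sum of 70364, the highest of its group, and replicate 1 of day 5, the fourth highest in miR-720, had 85186. In 4 of the 5 groups the array with the highest processed signal of miR-720 had the lowest summed signal of the other entries, the exception being day 100. The log2 signal of miR-720 and the log2 sum of the others correlated with r = -0.37 (rho = -0.22) over the 15 arrays and with r = -0.31 within groups (deviations from group means), and r was -0.18 without the 2 arrays farthest from the median of miR-720. These values share the array and its labeling reaction, and no test was made of them. The 5 control sequences named hur_1, hur_2, hur_4, hur_6 and mr_1, whose targets the files do not give, had a geometric mean of 1443 to 3240 in the syngeneic grafts, 1463 to 3926 on day 5, 3039 to 3932 on day 8, 3632 to 4917 on day 14 and 1866 to 3068 on day 100. They too were lowest on syngeneic replicate 2 and on replicate 3 of day 5. In 4 of the 5 groups they, like the 75th percentile, were lowest on the array with the highest miR-720. Without scaling, their correlation with miR-720 was r = -0.59 (rho = -0.50), with -0.36 within groups and -0.51 without the same 2 arrays. For the 75th percentile these values were r = -0.53 (rho = -0.34), -0.32 and -0.26. No test was made of these values either. Measured against these controls instead of the 75th percentile, the log2 differences of miR-720 from the syngeneic grafts were -0.85, -4.09, -3.34 and -1.73 on days 5, 8, 14 and 100. The part of labeling or RNA quality in the swing of miR-720 was not tested.

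Cell type markers moved across the same groups. The label of liver fits the hepatocyte list (miR-122, miR-192, miR-194, miR-148a and miR-101b), of which 5 of 5 were detected on every array. The summed scaled signal of that list was 30.7 to 36.6 in the syngeneic grafts, 22.3 to 26.4 on day 5, 23.2 to 25.0 on day 8, 13.5 to 17.4 on day 14 and 23.6 to 28.1 on day 100. MiR-122 (9002 to 20664 signal units) outweighs the others in this sum, the next being miR-192 (1297 to 2786). The lowest sums stood on day 14, and the lowest levels of miR-720 on day 8. Over the 15 arrays, r with miR-720 was 0.75 for miR-101b, 0.73 for miR-192, 0.73 for miR-148a, 0.58 for miR-122 and 0.47 for miR-194. Within groups, r was 0.61, 0.65, 0.38, 0.40 and -0.13 in the same order. Of 6 leukocyte miRNAs, 5 were detected on all arrays of days 5, 8 and 14 and 2 on all syngeneic arrays and on all of day 100. Their summed scaled signal was 0.71 to 1.78 in the syngeneic grafts, 3.09 to 8.21 on day 5, 2.27 to 2.70 on day 8, 3.13 to 4.28 on day 14 and 1.20 to 1.56 on day 100. Leukocyte miR-150, a marker of mature lymphocytes, was detected on 0 of the 15 arrays. The 3 erythroid miRNAs, of which miR-486 was detected on 1 array, summed to 0.62 to 1.24 on the syngeneic arrays. Their sum was 1.12 to 2.02 on day 5, 1.59 to 1.64 on day 8, 1.84 to 2.49 on day 14 and 0.71 to 1.47 on day 100. The stromal and endothelial list, with 5 of 6 on the array and miR-145 detected on 0, lay between 0.88 and 1.22 on all 15 arrays. The part of cell makeup in the level of miR-720 was not tested.

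Among the 51 other miRNAs detected on all arrays, the scaled level of 21 correlated positively with that of miR-720 over the 15 arrays and that of 30 negatively, with a median r of -0.11. The most alike were miR-30e (r = 0.95, rho = 0.88), miR-193 (r = 0.94, rho = 0.90) and miR-29b (r = 0.84, rho = 0.71). These miRNAs, like the most opposite ones below, were picked on r over these same arrays. Their other r values are therefore a description and no separate support. Within groups (deviations from group means) r was 0.93, 0.94 and 0.72. The SD of miR-720 was 1.86 in the syngeneic grafts and 1.18 on day 5 against 0.13 on day 8, so that the groups weigh unequally in these values. Without the 2 arrays farthest from the median (syngeneic replicate 2 and replicate 3 of day 5), r was 0.91, 0.89 and 0.77. On the first slide r was 0.97, 0.96 and 0.91, and on the second it was 0.95, 0.77 and 0.77. All values of 1 array share its scale. Without scaling, r was 0.73, 0.65 and 0.37 for these miRNAs, and miR-101b (0.50) and miR-101a (0.50) stood above miR-29b. Within groups, miR-142-3p (r = 0.89) also stood above miR-29b, though its r over the 15 arrays was 0.15.

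**Figure D4:**
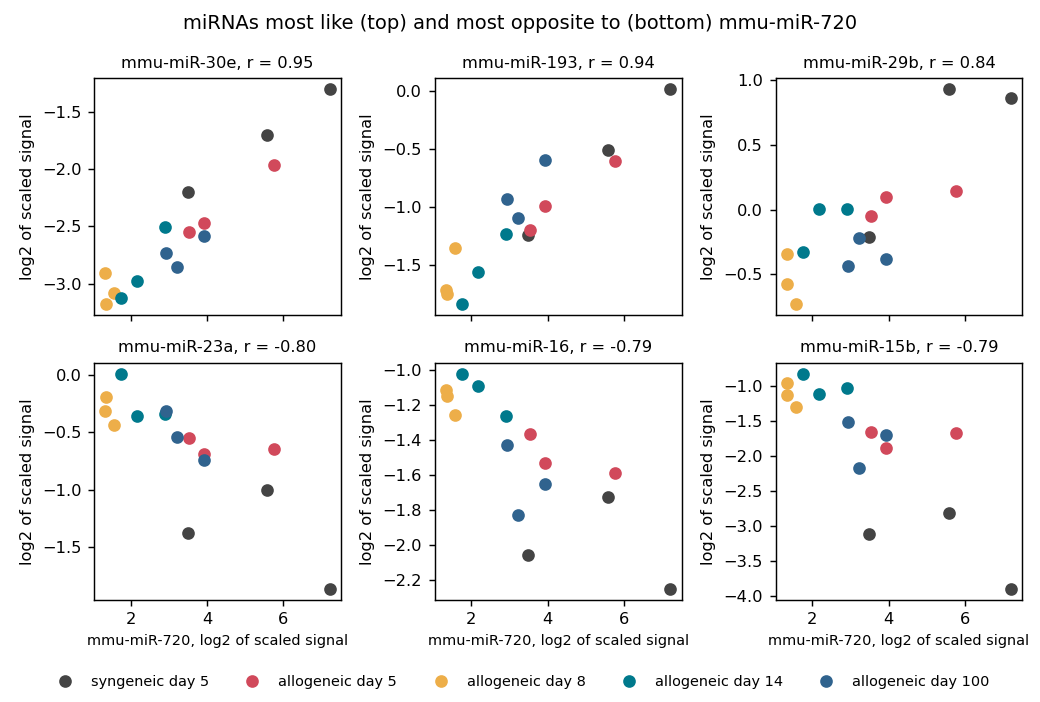
Scaled log2 signal of 6 miRNAs (vertical axes, each with its own range) against that of miR-720 (horizontal axis) on the 15 arrays, with points colored by group and r the Pearson correlation. The top row holds the 3 highest correlations and the bottom row the 3 lowest; the ranges of the vertical axes are smaller than that of miR-720, which spans 5.87 on the log2 scale.

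The most alike miRNAs had smaller ranges than miR-720, which the choice of miR-720 for its wide swing makes no finding. Among all 51 miRNAs compared, the widest range was that of miR-15b, from 26.7 to 471 (17.7-fold). The processed signal of miR-30e ran from 85.0 to 189 (2.22-fold), that of miR-193 from 217 to 470 (2.16-fold) and that of miR-29b from 397 to 1172 (2.95-fold), beside the 29.4-fold range of miR-720. On the scaled log2 scale, which divides by the 75th percentile, miR-30e spanned 1.87, with -2.20, -1.31 and -1.70 on syngeneic replicates 1 to 3 and -3.08, -3.18 and -2.90 on those of day 8. For miR-30e, as for miR-720 and for 18.4% of the 103 tested miRNAs, the syngeneic arrays lay wholly above those of day 8. MiR-30e was picked for its likeness to miR-720, so nothing is read from this.

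The most opposite miRNAs were miR-23a (r = -0.80, rho = -0.85), miR-16 (r = -0.79, rho = -0.80) and miR-15b (r = -0.79, rho = -0.79). MiR-16 and miR-15b share the seed printed above in capitals. Within the groups their r was -0.51, -0.42 and -0.43, and without the same 2 arrays it was -0.71, -0.73 and -0.76. On the scaled log2 scale, miR-15b was -3.27 ± 0.56 in the syngeneic grafts and -1.74 ± 0.13, -1.13 ± 0.17, -0.99 ± 0.15 and -1.79 ± 0.34 on days 5, 8, 14 and 100 (mean ± SD, n = 3 each), so that its highest group mean was day 14 where the lowest of miR-720 was day 8. Without scaling, r was -0.69, -0.69 and -0.75, and the lowest unscaled value of the 51 was that of miR-709 (r = -0.86).

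The entries numbered beside miR-720 were measured as a comparison, since they are taken by number and not by value. Besides miR-720, the array held 43 mouse entries from miR-680 up to miR-721, of which 33 were detected on no array and 6 were detected on every array of 1 or more groups and tested: miR-680, miR-689, miR-690, miR-705, miR-709 and miR-715. They were tested with limma against the syngeneic grafts, with Benjamini-Hochberg adjustment over all 103 tested miRNAs. On day 5, limma called 0 of the 6 (0 at an unadjusted p under 0.05, and 0 by the methods' t-test), where it called 25.2% of all tested miRNAs. On day 8 it called 1 of 6, miR-690, against 40.8% of all, and on day 14 it called 0 of 6 (0 at an unadjusted p under 0.05, and 0 by the methods' t-test), against 45.6%. On day 100 it called 2 of 6, miR-690 and miR-705, against 31.1%. The median log2 difference of the 6 was -0.46, -0.04, 0.08 and -1.15 on days 5, 8, 14 and 100, beside 0.12, 0.14, 0.07 and 0.00 for all 103. On day 100, 3 of the 6 (miR-680, miR-689 and miR-705) were detected on no array, and with these at their bounds the median was -0.76.

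MiR-690 was -1.56, -3.17 and -2.95 on the scaled log2 scale in syngeneic replicates 1 to 3, and -4.26, -4.10 and -2.93 in those of day 8. The groups overlapped, and the difference was -1.21 (SE 0.44, adjusted p = 0.043 from limma). This call was lost in 9 of 15 fits that left out 1 array, with adjusted p = 0.015 to 0.19 over those fits. On day 100 miR-690 was -4.23, -5.21 and -4.91, below every syngeneic array, though it was detected on 1 of these 3 arrays only and lay at the floor on another (fitted difference -2.22, SE 0.44, adjusted p = 0.0049 from limma). The size of that difference therefore depends on values near background. MiR-705 was not detected on any array of day 100, and in the syngeneic grafts 2 of 3 arrays detected it. Its fitted difference was -1.31 (SE 0.34, adjusted p = 0.016 from limma). Its syngeneic mean stood 1.80-fold above its bound for day 100. For the bound, each array of day 100 counted at its measured value or at its lowest detected signal, whichever was higher. The syngeneic mean includes the undetected value of replicate 2, so that 1.80-fold is not a strict lower limit. In a limma fit with the slide as a block, the adjusted p of day 100 was 0.078 for miR-690 and 0.25 for miR-705, so that neither call was kept.

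**Figure D5:**
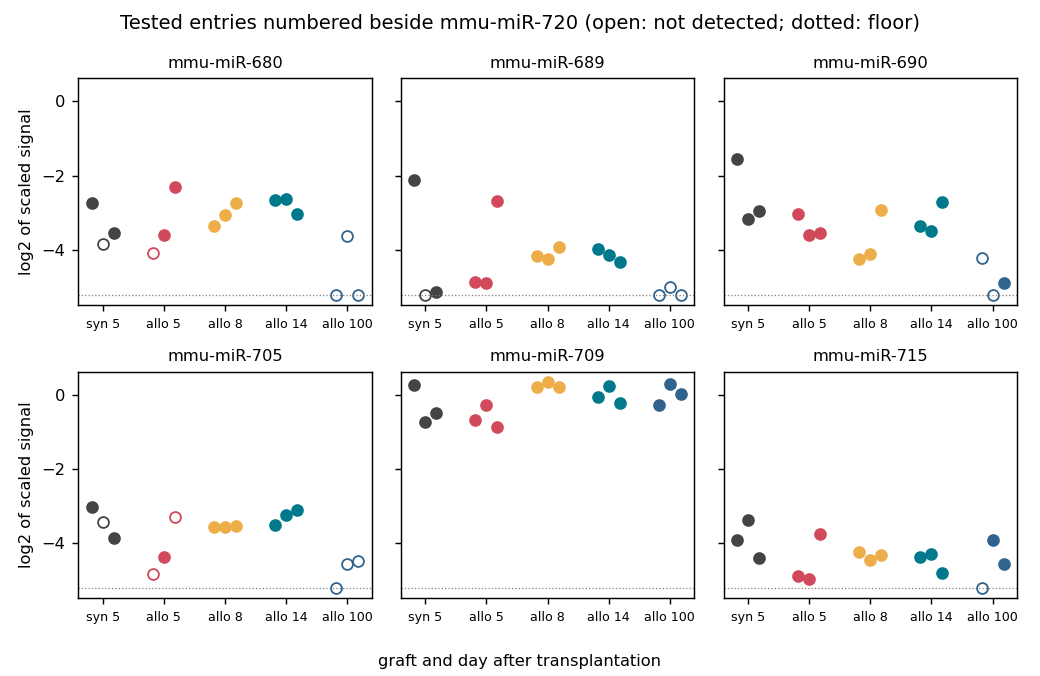
Scaled log2 signal (vertical axis) of the 6 tested entries numbered near miR-720 on each array, by graft and day (horizontal axis). Filled points were detected and open points not, and the dotted line is the floor of -5.21. MiR-709 lies between -0.88 and 0.34, and the other 5 lie at -3.62 or below on day 100.

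MiR-709, with a processed signal of 236 to 987, was the only one of the 6 detected on all 15 arrays. Its level was 0.26, -0.74 and -0.47 in the syngeneic grafts and 0.21, 0.34 and 0.21 on day 8 (difference 0.57, SE 0.25, adjusted p = 0.080 from limma). Its correlation with miR-720 was r = -0.75 on the scaled log2 scale, opposite in sign to the most alike miRNAs. The other 5 were dim, with correlations of -0.14 to 0.48 that rest in part on values at or near the floor. MiR-30e and miR-193 were picked as the highest correlations, so the neighbors by number are not ranked against them.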

How the data were processed

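Total RNA of 15 liver grafts was dephosphorylated, ligated to Cy3 and hybridized to Agilent mouse miRNA arrays by the authors. The intensity values deposited are the output of Feature Extraction 9.5.1.1 (per the file headers) for each spot, background-subtracted and not normalized between arrays. Flags deposited beside them mark controls, outliers, saturation and spots well above background. The authors' series table and its log2 values were not used here.

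Samples were grouped by title. Control and outlier spots were left out, and scaled values under 0.0270, the lowest detected value of a typical (median) array, were set to it before log2 was taken. A fit of 1 mean per group was made to 103 miRNAs on all 15 arrays with limma 3.58.1 in R 4.3.3. Benjamini-Hochberg adjustment was made within each comparison, with a threshold of 0.05. The fit was checked on simulated data that had the same spread for every miRNA and group and no floor. That check does not cover unequal spread or values at the floor. MiR-720 stayed in the fit and in the shares of all tested miRNAs called, but none of its own p-values is reported. Other steps used Python 3.11.15, numpy 2.4.6, pandas 2.3.3 and scipy 1.17.1.

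MiR-720, the lists and the rules for naming miRNAs were chosen with earlier results of these data known. The miRNAs named were miR-720, the tested entries from miR-680 to miR-721, the 3 highest and 3 lowest correlations with miR-720, the 3 largest mean shares and the marker lists. Alternatives were other scalings, probe summaries, filters, floors, blocks for slide and replicate number, smaller sets of arrays and the methods' t-test. Scaling to control sequences, the dimmer probe alone and the syngeneic arrays of the same slide were added after seeing the data. Normexp was run on median intensities, since the files hold no mean intensities.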

Additional observations from a re-analysis of the deposited data

How the results depend on the processing

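The log2 difference of miR-720 from the syngeneic grafts kept its sign on all 4 days under every alternative run. It moved by more than the pooled within-group SD of 1.05 under quantile normalization only, to -2.31 on day 8 and -1.73 on day 14. That mark is wide, and larger than the whole difference of day 5 (-1.02). Leaving out of 1 array aside, the difference ran from -1.23 to -0.48 on day 5 and from -2.21 to -1.04 on day 100. Its mean share moved by more than the group's SD with miR-122 left out of the sum, to 3.81% on day 8 and 19.5% on day 100, and with the brightest probe of every miRNA, to 3.51% on day 8. The replicate numbers do not pair the arrays (9 of 30 same-numbered pairs had correlated deviations above 0.1). With a replicate block the differences were -1.02, -4.01, -3.15 and -2.06 and the calls among the numbered entries 0, 1, 0 and 2 on days 5, 8, 14 and 100, as without it.

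The calls among the 6 numbered entries depended on the processing. On day 8 the 1 call became 0 with the 75th percentile over all miRNAs, with the floor divided by 4, with no filter on detection, with the 2 groups compared alone and with the methods' t-test after adjustment. With no scaling the count of day 8 stayed at 1, but the call was miR-709 (adjusted p = 0.019 from limma) and not miR-690 (adjusted p = 0.35). On day 14 the 0 calls became 3 with no scaling, which moved the median of all tested miRNAs from 0.07 to 0.71, and 2 with normexp. On day 100 the 2 calls became 1 with the 75th percentile over all miRNAs or with normexp, and 0 with no filter, with the slide as a block, with the 2 groups alone and with the methods' t-test, while they became 3 with median scaling, quantile normalization or the floor divided by 4. Among miRNAs detected on all 15 arrays the calls were 0 on days 8 and 100, since miR-709 alone of the 6 was then tested. Leaving out 1 array gave 0 to 1 calls on days 5, 8 and 14 and 2 to 3 on day 100. The call on day 5 was made without replicate 3 of day 5 and that on day 14 without syngeneic replicate 1. The cause of these changes was not tested. Entries near background on day 100 have only an upper limit there.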

Other observations

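The likeness to miR-720 was uneven within the miR-30 family, whose members share 1 seed. This family was looked at after the correlations were seen, and its values are a description. On the scaled log2 scale over the 15 arrays, r with miR-720 was 0.95 for miR-30e and 0.77 for miR-30a, while it was -0.01 for miR-30c, -0.12 for miR-30d and -0.64 for miR-30b. Within groups r was 0.93 for miR-30e, 0.43 for miR-30a, -0.35 for miR-30c, 0.16 for miR-30d and -0.65 for miR-30b. Without scaling, r was 0.73 for miR-30e, 0.04 for miR-30a, -0.51 for miR-30c, -0.73 for miR-30d and -0.61 for miR-30b. MiR-30a and miR-30e differ by 1 base (C13U, as counted above). From the syngeneic grafts to day 8, the scaled log2 level went from -1.74 ± 0.45 to -3.05 ± 0.14 for miR-30e and from 0.56 ± 0.20 to -0.20 ± 0.04 for miR-30a (mean ± SD, n = 3 each).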
